A study of Homo sapiens with 4 samples.

Results

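PDX1 lies in the ParaHox cluster of chromosome 13, beside GSX1 and CDX2, with URAD and FLT3 as the next genes. Peaks of the 4 ATAC-seq lists were merged wherever they overlapped by at least 1 bp, and the regions that overlapped the bodies of these 5 genes or the 50 kb on either side were taken. This gave 36 regions of 164301 in all, and of 5271 on chromosome 13. The 2 stretches covered run from chr13:27742483-27844768 around GSX1 and from chr13:27870000-28150592 around the other 4 genes, in build hg38 with the gene models of GENCODE 44. The cells were pancreatic progenitors differentiated from MEL1, an established human embryonic stem cell line, which the methods give as MEL1 INS GFP/W, with GFP placed in the insulin gene. Treatment lasted 7 days. The control cells received the vehicle DMSO in EF6 medium, the treated cells 1 μM I-BET151 in the same medium (then called EF6I), and each condition had 2 libraries of 50000 cells. I-BET151 is a small molecule that occupies the bromodomains of BET proteins, which read acetylated histones. All 4 libraries came from this 1 line. No label says whether the libraries of a condition came from separate cultures, so that p-values measure only the spread between these libraries. Peaks carry no transcript level, and the identity of the cells could not be checked from RNA here.

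ParaHox genes encode homeodomain transcription factors that pattern the embryonic gut and nervous system. PDX1 sets up the pancreas and duodenum and is kept on in β cells, where it acts on the insulin gene. CDX2 specifies the intestine, and GSX1 acts in the brain and spinal cord. URAD is named for a step in the breakdown of urate, and FLT3 is a receptor tyrosine kinase of blood progenitors. PLUT is a long noncoding RNA gene that starts beside PDX1 and runs away from it on the opposite strand toward GSX1. ATAC-seq counts the cuts that the transposase Tn5 makes in open chromatin, so that a peak marks DNA that is less covered by nucleosomes.

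The sequences below are those on which the results turn, read from hg38 and printed 5′ to 3′. The first pair comes from a region before the PDX1 start that holds 2 summits, the first at the PLUT start at chr13:27917256-27917406 and the second nearer PDX1 at chr13:27918203-27918353, both on the plus strand. Capitals mark a match to the HNF6 letters ATNGAT in the former and to the SOX9 letters CCATTGT in the latter, both read on the reverse strand. The third, at chr13:27909584-27909734 on the plus strand, is from PLUT intron 1 and has in capitals the reverse complement of the PDX1 letters ATCAATCA.
PDX1 upstream, summit at the PLUT start: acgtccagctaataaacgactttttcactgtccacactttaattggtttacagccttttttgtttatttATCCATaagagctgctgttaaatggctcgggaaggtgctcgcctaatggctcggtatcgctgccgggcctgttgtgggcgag
PDX1 upstream, summit nearer PDX1: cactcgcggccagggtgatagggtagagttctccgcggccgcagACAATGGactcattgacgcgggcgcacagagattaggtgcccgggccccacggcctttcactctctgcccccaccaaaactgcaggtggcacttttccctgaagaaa
PLUT intron 1: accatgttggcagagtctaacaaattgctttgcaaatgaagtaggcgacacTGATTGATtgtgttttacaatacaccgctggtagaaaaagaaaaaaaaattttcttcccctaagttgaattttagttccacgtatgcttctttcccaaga

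The starts of GSX1 and FLT3, called in both I-BET151 lists and no DMSO list, are shown beside that of CDX2, called in all 4. Each stretch ends at the last base before the annotated start and follows the strand of its gene. They are chr13:27792402-27792482 on the plus strand for GSX1, chr13:27969316-27969505 on the minus strand for CDX2 and chr13:28100593-28100742 on the minus strand for FLT3. In the GSX1 and FLT3 stretches capitals mark CG dinucleotides, of which there were 8 and 12. In the CDX2 stretch they mark the CDX2 letters CAATAAA and the reverse complement of the FOXA letters TGTTTAC.
GSX1: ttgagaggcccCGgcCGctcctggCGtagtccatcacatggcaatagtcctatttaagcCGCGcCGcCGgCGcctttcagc
CDX2: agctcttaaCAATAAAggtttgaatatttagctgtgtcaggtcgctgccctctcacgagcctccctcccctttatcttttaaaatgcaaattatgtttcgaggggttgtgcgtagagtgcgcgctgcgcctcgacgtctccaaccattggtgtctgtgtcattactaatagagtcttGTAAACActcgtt
FLT3: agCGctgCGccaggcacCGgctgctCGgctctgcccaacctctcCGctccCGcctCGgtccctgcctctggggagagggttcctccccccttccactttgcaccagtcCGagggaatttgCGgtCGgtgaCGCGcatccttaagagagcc

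The lists held 82568 and 38295 peaks with DMSO and 84995 and 111324 with I-BET151, replicates 1 and 2 in turn, so DMSO replicate 2 stood apart as the shortest. From the background that the peak caller used, the depth of the libraries, in units of 1000000 reads, was about 38.7 and 36.6 with DMSO and 12.5 and 16.0 with I-BET151. The DMSO libraries were therefore the deeper ones. The lowest pileup called anywhere was 0.259 and 0.301 reads per 1000000 (RPM) in the DMSO lists and 0.401 and 0.375 in the I-BET151 lists. Pileup is the number of reads over the summit of a peak, and it was recovered from the fold enrichment and p-value of each peak.

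With I-BET151 more of the neighbourhood was called, and so was more of chromosome 13 as a whole. Peaks covered 1.83% and 1.12% of the window in the DMSO lists and 2.69% and 4.40% in the I-BET151 lists, against 0.659%, 0.427%, 0.901% and 1.73% of chromosome 13. Of the 36 regions, the DMSO lists called 17 and 7 and the I-BET151 lists 22 and 26. Regions that both I-BET151 libraries called but neither DMSO library did are here named gained, and there were 10 of them, 27.8% of the members. The background over all merged regions was 17.0%, and on chromosome 13 it was 19.6%. The converse, a region lost with I-BET151 from both libraries, was found for 0 members, where the background was 2.37%. A further 6 members (16.7%) were called in all 4 lists, against 15.6% of all regions. These counts carry no test. Within replicate 1, 14 members were called with I-BET151 only and 9 with DMSO only, and within replicate 2 the counts were 19 and 0. Over all regions the share with I-BET151 only among those called in 1 list of the pair was 51.2% and 92.7%, and among the members it was 60.9% in the first pair. When DMSO replicate 2 was left out, 11 members were gained and 6 lost, and no share over all regions was taken for this setting. When each list was shortened to its 38295 strongest peaks, 1 of 15 members was gained (6.67%), the region over the PDX1 start, against 9.19% of all regions. The members' share was then below the background and not above it. The shortening did not go by fold enrichment, by which this region stood only at percentile 37.0 and 37.3 of the full I-BET151 lists.

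**Figure D1:**
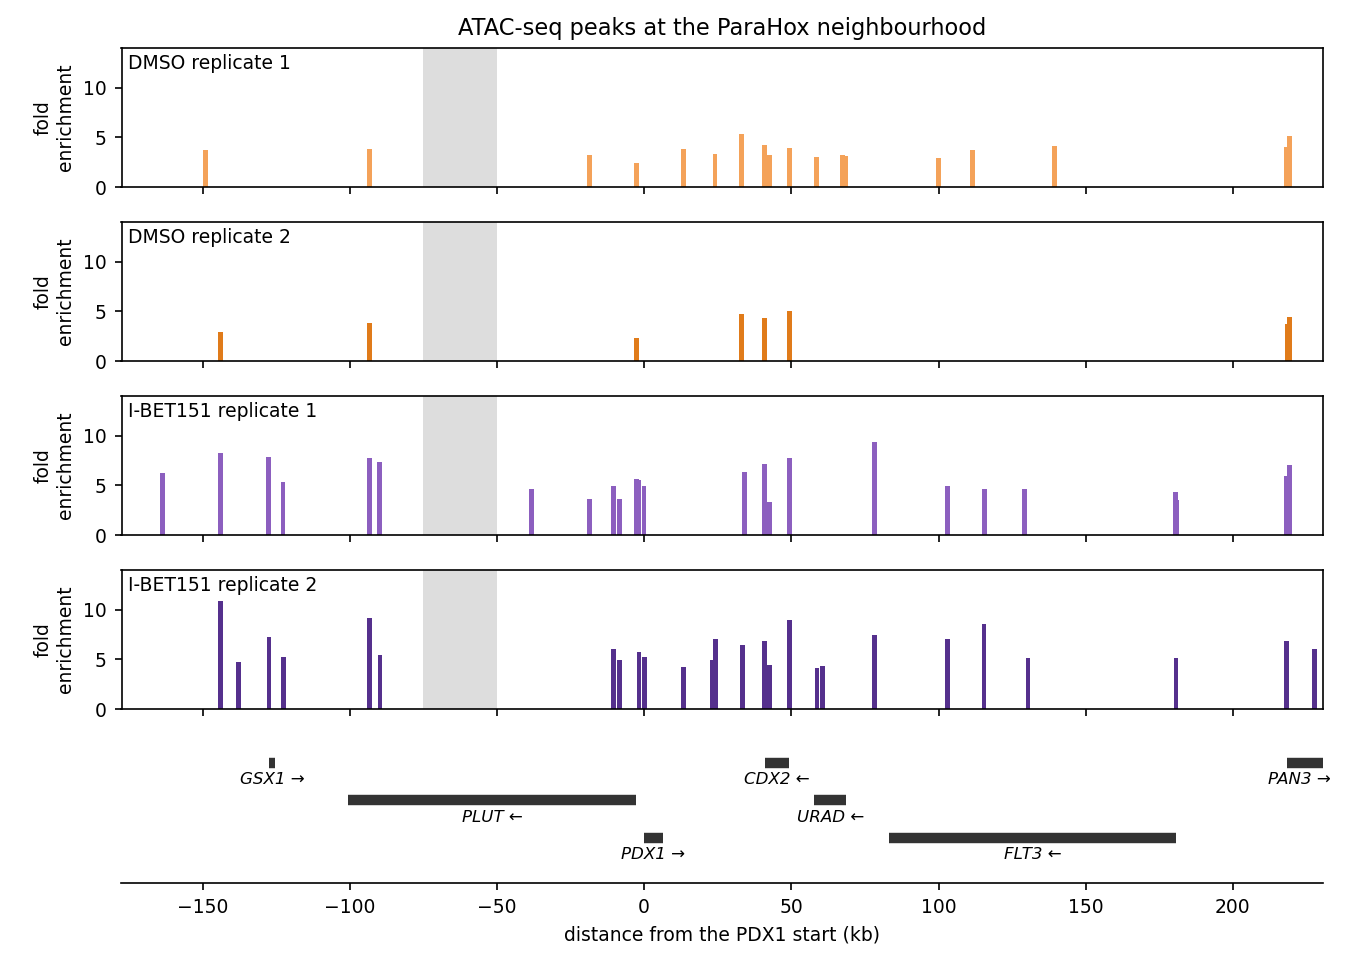
Peaks of the 4 lists in the window, with the distance of each summit from the PDX1 start in kb on the x axis and fold enrichment over the local background as bars on the y axis; the grey band was outside the window and the lowest panel shows gene bodies with arrows for strand. A bar at the GSX1 start is in the 2 I-BET151 panels only, those just upstream of PDX1 are lower with DMSO (2.43 and 2.37) than with I-BET151 (5.66 and 5.71), and the CDX2 start has a bar in all 4.

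PDX1 had 9 regions, of which 3 were gained and 1 was shared by all lists. The region over its start, at chr13:27919841-27920249 with the summit at +43 bp in the untranslated part of exon 1, was gained. It held 35 reads at the summit in I-BET151 replicate 1 (95% Poisson interval 24.4 to 48.7) and 61 in replicate 2 (46.7 to 78.4), and was in neither DMSO list. Scaled to depth, this was 2.81 and 3.81 RPM. By fold enrichment (4.90 and 5.20) the region stood at percentile 37.0 and 37.3 of the I-BET151 lists. Its local background with I-BET151 was 6.87 and 7.20 times the genome mean. With the local background that the DMSO libraries showed at the region just upstream, the lowest pileup that would have been called there was 19 reads in each, or 0.491 and 0.519 RPM. The intervals cover counting error only. Both I-BET151 values were several times the DMSO limits, and they were the highest RPM of any gained region in the window. The limits found in the same way for the I-BET151 libraries were higher, at 1.28 and 1.38 RPM. Over all regions called in the 4 lists, RPM was also higher with I-BET151, by a median of 1.57 and 2.25 on the log2 scale. A comparison of RPM with the DMSO limits holds this general difference as well.

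Upstream of PDX1, the region at chr13:27917102-27918490 was called in all 4 lists. Each list had a peak over the PLUT start, but the extent of the peaks and the further summits differed. In DMSO replicates 1 and 2 the peak was short, 275 and 236 bp, with its summit at −33 and −55 bp from the PLUT start. It held 22 reads (interval 13.8 to 33.3) and 21 reads there. I-BET151 replicate 1 had 40 reads at −40 bp from the PLUT start and a second peak of 39 reads at −1787 bp from the PDX1 start. I-BET151 replicate 2 had 1 long peak with 66 reads and its summit at −1722 bp from the PDX1 start. A summit nearer PDX1 was thus called in each I-BET151 library, while the DMSO libraries had a call only at the PLUT start. With the local background of the DMSO peaks, the lowest pileup that would have been called was 19 reads in each DMSO library. The DMSO peaks at the PLUT start, at 22 and 21 reads, were little above this limit. A slightly lower DMSO summit nearer PDX1 could have gone unlisted, and its absence was not tested. The 2 summits are those of the first 2 sequences printed above.

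**Figure D2:**
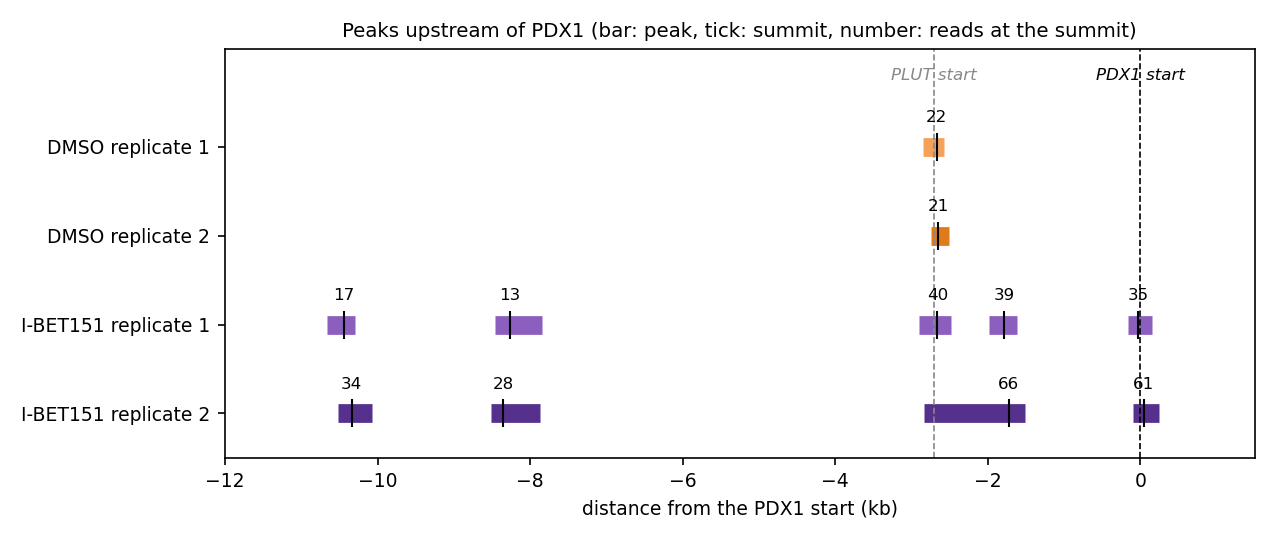
Peaks upstream of PDX1 in the 4 lists, with the distance from the PDX1 start in kb on the x axis and 1 row per library; bars span the peaks, ticks are summits, the numbers are reads at the summit and dashed lines are the starts of PLUT and PDX1. Only the peak at the PLUT start is in the DMSO rows (22 and 21 reads), while the I-BET151 rows have peaks also at −1787 and −1722 bp and over the PDX1 start (35 and 61 reads).

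This upstream region was the only one of the 6 shared members that passed the rank test. The test took the strongest peak of each list within a region. Here that summit was at the PLUT start in all lists except I-BET151 replicate 2, where it was at −1722 bp from the PDX1 start. Among the 25627 regions called in all lists it stood at percentile 0.0858 and 0.0780 by fold enrichment with DMSO and at 17.6 and 6.86 with I-BET151, so it was among the weakest of them with DMSO and still in the lower part with I-BET151. Within the whole lists, which differ in length and in how many weak peaks they hold, it stood at 0.392 and 0.324 with DMSO and at 51.8 and 44.9 with I-BET151. In limma on normal scores of the ranks over these shared regions, the shift was 1.95 (SE 0.388, n = 2 per condition, adjusted p = 0.0150 by limma). That is 1 of 6 members up, against a background of 3.41%, and 0 of 6 down, against 1.96%. Without DMSO replicate 1 or 2 the shift was 1.96 and 1.93, and its adjusted p by limma was 0.0656 and 0.0583, where the lone DMSO library was assumed to vary like the I-BET151 pair. On scaled pileup centred on the median of each library the adjusted p by limma was 0.0710. The call ended in all 3. Its −log10 p in the DMSO lists was 4.56 and 4.27, below the threshold of 5 given in the methods, and at that threshold the region counted as gained.

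The remaining gained regions of PDX1 lay in PLUT intron 1. The region at −10341 bp (chr13:27909343-27909924) held 17 and 34 reads in the I-BET151 lists, and the region at −8350 bp held 13 and 28. The former is the third sequence printed above, and it was the only member with the PDX1 letters within 100 bp of its summit. The other 5 PDX1 regions had mixed calls. Those at +13407 and +24240 bp were in DMSO replicate 1 (14 and 13 reads) and in I-BET151 replicate 2 (12 and 22 reads), and the one at −18603 bp was in both replicate 1 lists with 13 and 6 reads. The regions at −38219 and +23220 bp were in 1 I-BET151 list each.

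GSX1 had 8 regions, 3 of them gained. Its own start, at chr13:27792402-27792728, held 20 reads in I-BET151 replicate 1 and 24 in replicate 2, with 95% Poisson intervals of 12.2 to 30.9 and 15.4 to 35.7, and it was absent from both DMSO lists. The gained region at +4877 bp held 13 and 14 reads and the one at +37661 bp, in PLUT intron 3, held 25 and 31. The region at +34213 bp, also in PLUT intron 3, was shared, with 26 and 27 reads with DMSO and 26 and 53 with I-BET151 (adjusted p = 0.354 by limma). A region at −16318 bp was in 3 lists, with 19 reads in DMSO replicate 2 and 17 and 38 with I-BET151. It stood at percentile 7.89 of its DMSO list and at 79.4 and 88.1 of the longer I-BET151 lists, and DMSO replicate 1 did not list it. The regions at −36023, −21496 and −10196 bp were in 1 list each, of which the second was DMSO replicate 1.

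CDX2 differed from its ParaHox neighbours in that its start was called in every list. The region over it had its summit at −81 bp and held 39 and 51 reads with DMSO and 51 and 93 with I-BET151 (rank shift 0.037, SE 0.427, by limma). Among the regions called in all lists its percentile was 19.6 and 61.1 with DMSO and 43.3 and 37.1 with I-BET151, so the groups overlapped. The region at +8391 bp, in the last exon, held 35 reads in both DMSO libraries and 43 and 86 with I-BET151 (adjusted p = 0.673 by limma). The region at +15779 bp, over exon 1 of the noncoding gene LINC00543, held 30 and 26 reads with DMSO and 23 and 52 with I-BET151. Here the percentile among the shared regions was 54.2 and 52.9 with DMSO and 25.6 and 11.8 with I-BET151, but the shift of −1.01 did not pass the test (SE 0.386, adjusted p = 0.123 by limma). The region at +6731 bp was missing from DMSO replicate 2 alone, with 30 reads in DMSO replicate 1 and 22 and 59 with I-BET151, and the region at −9379 bp was in DMSO replicate 1 (23 reads) and I-BET151 replicate 2 (24 reads). Of the 5 CDX2 regions none was gained or lost.

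At the URAD start the only calls were in 1 DMSO list. The region over exon 1, with its summit at +152 bp, and the one at +1268 bp were called in DMSO replicate 1 alone, with 15 and 16 reads, and neither was in the other 3 lists. Scaled to depth these were 0.388 and 0.414 RPM. The lowest pileups called anywhere in the I-BET151 lists were 0.401 and 0.375 RPM, so a missing peak there says little. Of the 8 URAD regions 3 were gained, and all 3 lay upstream. The region at −9450 bp (chr13:27997851-27998367) was intergenic and held 17 and 18 reads, at percentile 85.6 and 65.8 of the I-BET151 lists, the highest percentile of any gained member in replicate 1. The gained regions at −34441 and −46729 bp lay in introns 19 and 12 of FLT3 and held 9 and 22 reads and 8 and 23 reads. The others were in 1 list each, I-BET151 replicate 2 at +8004 bp (26 reads) and DMSO replicate 1 at −31264 and −42773 bp (14 and 18 reads).

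FLT3 had 4 regions by the nearest start, the fewest of the 5 genes. A further 4 regions lay in FLT3 introns but were nearer to the URAD start and were counted there. The FLT3 start, at chr13:28100207-28101167 with the summit at −47 bp, was gained with 9 and 12 reads, 0.722 and 0.750 RPM. The lowest pileups that the I-BET151 lists held were 5 and 6 reads, and the 95% Poisson intervals reached up to 17.1 and 21.0 reads. The remaining 3 regions lay in FLT3 introns and were in 1 list each, at 8, 12 and 15 reads. In addition, 2 regions were nearest to the start of PAN3, a subunit of a deadenylase, at the edge of the window. The one at +740 bp was shared, with 30 and 27 reads with DMSO and 34 and 57 with I-BET151 (adjusted p = 0.316 by limma), and the one at +9193 bp was in I-BET151 replicate 2 alone.

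**Figure D3:**
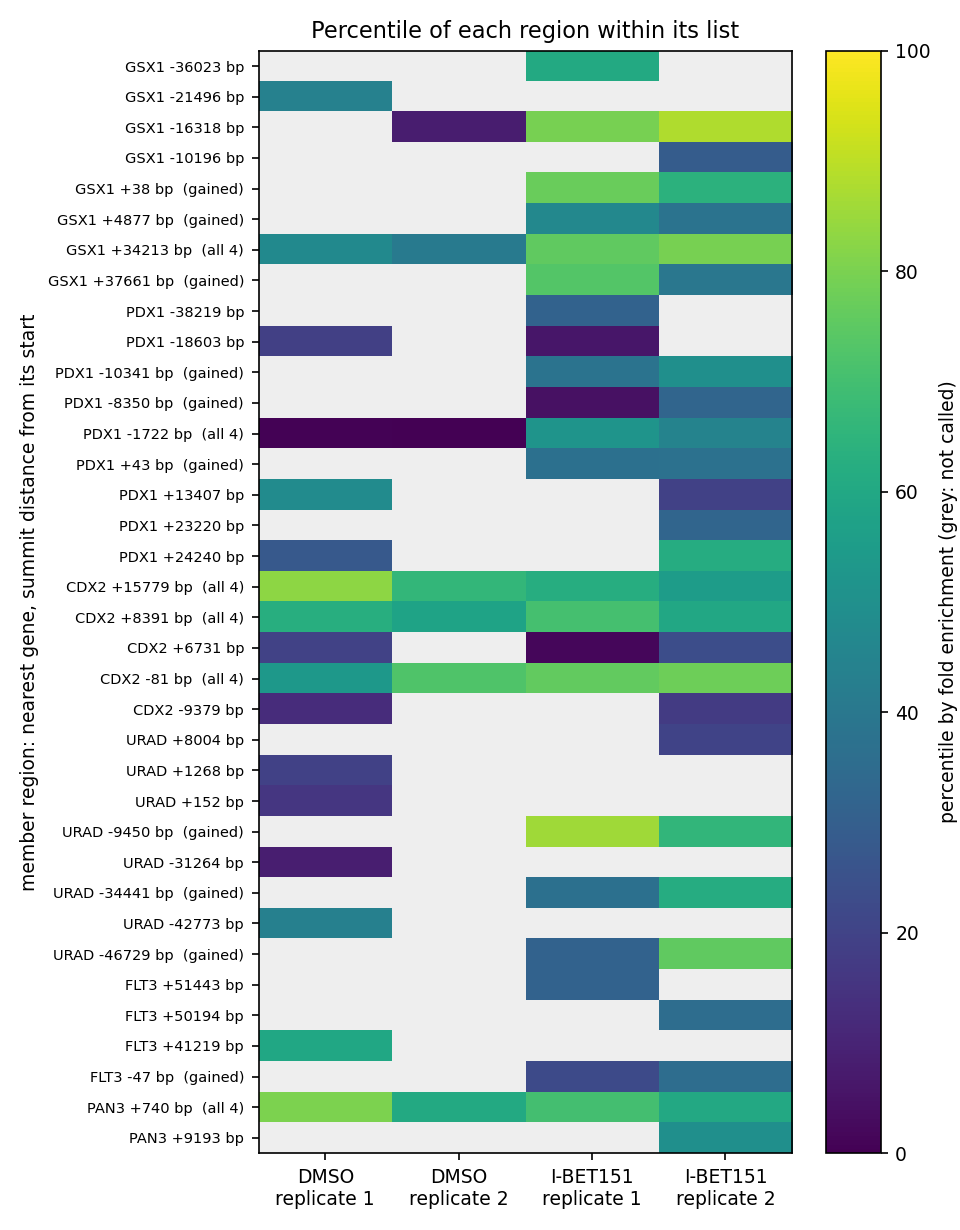
Percentile by fold enrichment of each of the 36 regions (rows, in genome order, named by nearest gene and summit distance from its start) within each of the 4 lists (columns), with grey where the list had no peak. The PDX1 region at −1722 bp is at 0.392 and 0.324 of the DMSO lists and at 51.8 and 44.9 of the I-BET151 lists, and the CDX2 start is between 53.2 and 78.0; the lists differ in length, and among the regions called in all 4 the former is at 17.6 and 6.86 with I-BET151.

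Across the 7 regions within 2000 bp of the starts of the 5 genes, those over GSX1, PDX1 and FLT3 were gained, those at CDX2 and upstream of PDX1 were in all lists, and the pair at URAD was in 1 DMSO list. The pileup of all 10 gained regions ran from 0.642 to 3.81 RPM in the I-BET151 lists. Their median pileup was 15 and 23.5 reads, against 12 and 19 for all gained regions, and their median percentile was 37.6 and 44.8, against 47.7 and 49.6. Of the 10, 5 were intronic, 3 intergenic and 2 exonic.

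At all 6 shared members each I-BET151 library had a higher RPM at the summit than either DMSO library, where the background over all shared regions was 97.4%. The difference at the region upstream of PDX1 was 2.50 on the log2 scale in replicate 1 and 2.85 in replicate 2, against medians over all shared regions of 1.57 and 2.25. In replicate 2 this set the I-BET151 summit nearer PDX1 against the DMSO summit at the PLUT start, which are different sites. At the CDX2 start it was 2.02 and 2.06, so it was above the median in replicate 1 and below it in replicate 2. The local background, which is the larger of the genome mean and the mean of the surrounding 10 kb, was likewise above both DMSO values in each I-BET151 library at all 6, with a background of 80.4%. Around the region upstream of PDX1 it was 2.96 and 2.62 times the genome mean with DMSO and 6.76 and 7.07 times with I-BET151. Reads were thus more in the surroundings of this region as well as at its summit, and the rank test above used fold enrichment, which divides by these surroundings.

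**Figure D4:**
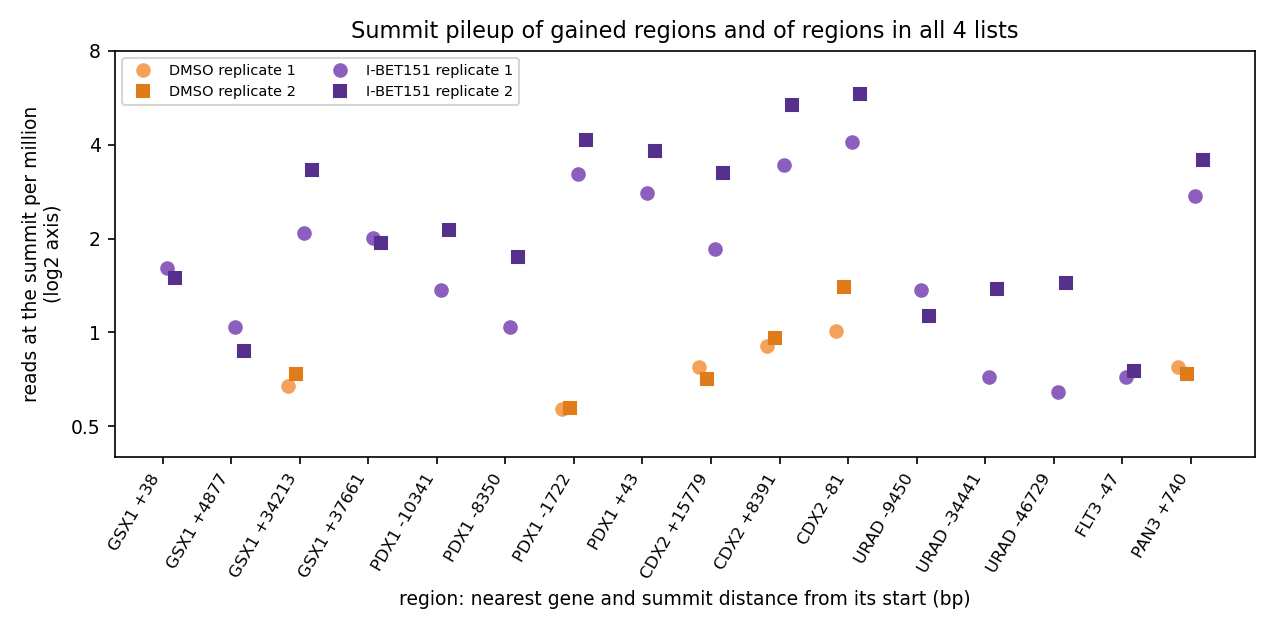
RPM at the summit (y axis, log2 scale) in each library for the 10 gained regions, which have I-BET151 points only, and the 6 regions in all lists (x axis, by nearest gene and summit distance from its start); circles are replicate 1 and squares replicate 2. At every shared region both I-BET151 points lie above both DMSO points, and the PDX1 start reaches 2.81 and 3.81 with I-BET151.

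As a value per gene, the locus score was the mean percentile over the regions nearest to its start, with 0 where a list had no peak. Longer lists raise this score, and it is read against all genes. For PDX1 it was 10.6 and 0.0360 with DMSO and 18.8 and 31.0 with I-BET151, a difference of 19.5. That stood at percentile 76.0 among genes with a region. The PDX1 difference became 8.80 at a −log10 p of at least 10 and 2.61 with lists of equal length. For GSX1 it was 11.4 and 6.14 with DMSO and 51.6 and 42.4 with I-BET151, a difference of 38.2 that was higher than that of 94.7% of genes with a region, and with lists of equal length it was 22.9. For URAD it was 10.8 and 0 with DMSO and 19.2 and 27.9 with I-BET151, a difference of 18.2, at percentile 72.9. Of the 8 URAD regions 4 lay in FLT3 introns. In PDX1, GSX1 and URAD both I-BET151 libraries lay above both DMSO libraries, which was so for 45.8% of 17685 protein-coding genes with a region. For CDX2 the score was 46.2 and 39.4 with DMSO and 42.1 and 46.9 with I-BET151, and for FLT3 it was 14.9 and 0 with DMSO and 13.5 and 17.9 with I-BET151. The groups overlapped in both, and the differences were 1.71 and 8.24 (percentile 26.1 and 44.3 among genes with a region). That of FLT3 was 0.784 without DMSO replicate 2 and 15.7 without DMSO replicate 1, and that of CDX2 was −1.71 without DMSO replicate 2, 5.12 without DMSO replicate 1, 4.09 without I-BET151 replicate 1 and −0.674 without I-BET151 replicate 2. The mean over the 5 genes differed by 17.2, and the median over all genes was 10.0, both with the full lists. With lists of equal length FLT3 had no region, and the mean over the remaining genes differed by 7.93. With 2 libraries per condition the two-sided exact permutation test cannot give a p below 0.333, which was reached by PDX1, GSX1, URAD and the mean of the 5, and it was 0.667 for CDX2 and FLT3. Within replicate pairs, the difference for PDX1 was 8.16 in pair 1 and 30.9 in pair 2, for GSX1 40.2 and 36.2, and for CDX2 −4.09 and 7.50.

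**Figure D5:**
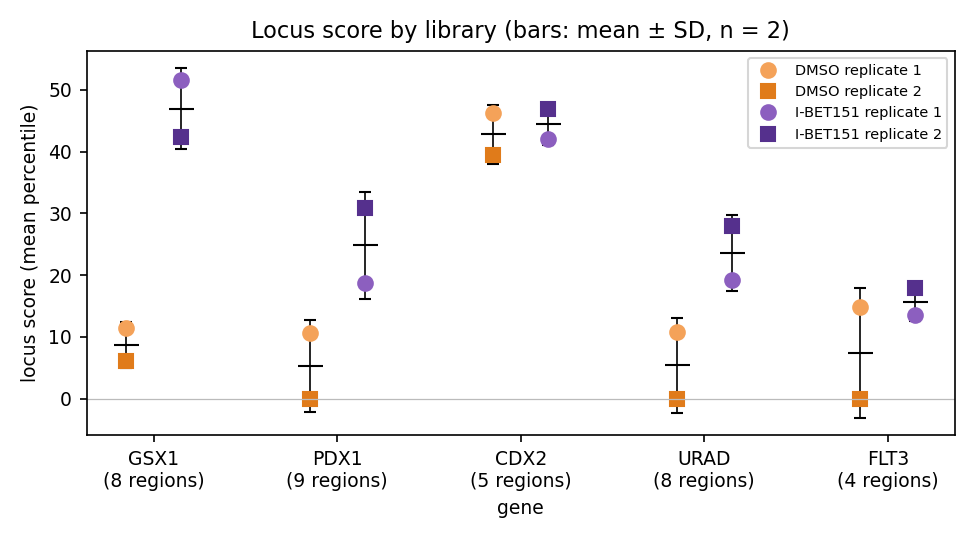
Locus score (mean percentile over the regions of a gene, 0 where not called) on the y axis for the 5 genes on the x axis; circles and squares are replicates 1 and 2 and the bars are the mean ± SD of 2 libraries. The mean for GSX1 is 8.78 with DMSO and 47.0 with I-BET151, and for CDX2 it is 42.8 and 44.5.

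Factors that act with PDX1 in the pancreas were compared by the same measures. Their 20 genes held 241 regions, of which 42 (17.4%, against 17.0% of all regions) were gained and 6 (2.49%, against 2.37%) lost, and none of their 43 shared regions passed the rank test in limma in either direction. The score was higher in both I-BET151 libraries in 10 of the 20, against 45.8% of all genes, with a median difference of 10.6, against 10.0, and a range of 1.29 to 26.3. The largest differences were those of MAFA (26.3), which activates insulin in mature β cells, RFX6 (26.0) and NEUROG3 (16.0), which act in endocrine precursors, and HNF4A (17.9). Without DMSO replicate 2 that of RFX6 was 13.999 and that of NEUROG3 was 5.78, and without I-BET151 replicate 2 those of NEUROG3 and HNF4A were 9.61 and 6.30. That of NEUROG3 was 26.1 without DMSO replicate 1, and that of HNF4A 29.6 without I-BET151 replicate 1. The groups of NEUROG3 overlapped. A list of genes related to those of the ParaHox neighbourhood, with GSX2, CDX1, CDX4 and receptor kinases such as FLT1 and FLT4, held 72 regions in 9 of 10 genes, and CDX4 had none. Of these, 16 (22.2%, against 17.0% of all regions) were gained and 2 (2.78%, against 2.37%) lost. Of 11 shared regions 2 passed the rank test upward, at CDX1 and CSF1R, and 0 downward, against 3.41% and 1.96% of all shared regions. The score was higher in both I-BET151 libraries in 5 of the 9 genes, against 45.8%, with a median difference of 10.8, and the difference ranged from −10.6 for FLT4 to 30.2 for CDX1, with PDGFRA at 23.5 and KIT at 21.0. That of FLT4 was 5.56 without DMSO replicate 1 and −26.7 without DMSO replicate 2. CDX1, the sister gene of CDX2, was near 0 with DMSO (mean 0.527) and at 30.7 with I-BET151.

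Motif letters were counted on both strands within 100 bp of each summit. HNF6 (ONECUT1) letters ATNGAT were in 11 of 36 members (30.6%), against 21.2% of all regions. They were in 5 of the 9 PDX1 regions, in 3 of 8 at URAD, in 2 of 8 at GSX1, in 1 of 4 at FLT3 and in none of the 5 at CDX2. The PDX1 letters ATCAATCA contain the reverse complement of the HNF6 letters, and the only match to them, in the PLUT intron 1 sequence above, is counted under both. It is 1 of 36 members (2.78%), against 0.976% of all regions. The CDX2 letters CAATAAA were in 4 members (11.1%, against 5.04%), among them the CDX2 start and the region at +8391 bp in its last exon. The SOX9 letters CCATTGT were in 3 members (8.33%, against 2.90%), among them the summit nearer PDX1 printed above. The FOXA letters TGTTTAC were in 2 members (5.56%, against 4.57%), the homeobox core TAATTA in 2 (5.56%, against 4.72%) and the GATA letters GATAAG in 1 (2.78%, against 10.1%). The CTCF core was in 1 member (2.78%, against 1.86%), the region at −21496 bp from GSX1. Of the gained members 2 held a match to any of these, both to HNF6 letters. These matches are a description of the letters and were not tested. The 201 bases around the summits had a median GC content of 51.0% in the members, 55.7% in the gained and 61.2% in the shared ones, against 47.8% over all regions.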

How the data were processed

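Chromatin accessibility was measured by ATAC-seq in 4 libraries, and the labels gave the condition and number of each. The members and the lists of genes and motifs were chosen with earlier results of these data known. Per the labels and methods, the authors used Bowtie2 (v2.2.5) for alignment to hg38, discarded duplicate and mitochondrial reads, and ran MACS2 (v2.1.2) on every library separately, with no control library. Each deposited list holds a display score, which was not used, the fold enrichment at the summit as a ratio to local background, −log10 of the p-value and q-value, and the summit position. The ratio was read as having 1 added to both pileup and background, so that depth does not cancel fully in it. The lists reached down to a −log10 q of 1.30 to 1.33, a looser limit than the −log10 p of 5 in the methods. The shortest peak, a sign of the read extension, was 200 and 233 bp in DMSO replicates 1 and 2 and 200 and 256 bp in I-BET151 replicates 1 and 2.

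Peaks of the autosomes, X and Y were merged at an overlap of 1 bp. A region was assigned to the nearest start of a protein-coding gene (GENCODE 44). Summit pileup was solved from fold enrichment and p-value in 99.9% to 100.0% of peaks, and depth from the genome background with a genome size of 2700000000 bp. Ranks were tested with limma (v3.58.1, R 4.3.3) on all regions in the 4 lists, with Benjamini-Hochberg adjustment and a threshold of 0.05, and locus scores by an exact permutation test, two-sided. The local background and the leaving out of libraries for the context genes were added after values had been seen. The limma step was tested on simulated data. Other steps used Python 3.11.15, pandas 2.3.3 and scipy 1.17.1.

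Named in full were the 5 genes and the gained, lost and shared regions or those within 2 kb of a start; of each context list at most 4 genes with the largest score difference were named. Deviations of libraries with the same number had a correlation of −0.143, so replicate numbers were not used as pairs in the tests. Alternatives were the peak threshold, equal list length, overlap, window, rank measure, replicate block and leaving out each library.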

Additional observations from a re-analysis of the deposited data

How the results depend on the processing

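Lists of different depth, length and read extension limit what a missing peak means, and 2 libraries per condition allow no exact p below 0.333. With equal list length 1 region was gained, that over the PDX1 start, in place of 10, and the count was 7 to 11 under the other thresholds, the overlap of 50% and windows of 25 and 100 kb. At a −log10 p of at least 5 the gained share was 32.4% of members, against 18.1% of all regions. At 10 it was 36.8%, against 23.3%. Leaving out 1 library gave 11 to 15 gained and 0 to 6 lost regions. No share over all regions was taken with a library left out, so these counts cannot be set against a background. The 6 lost were those of DMSO replicate 1 alone, counted without DMSO replicate 2.

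The rank call upstream of PDX1 was not made with centred scaled pileup (0 up) or at a −log10 p of at least 5 (0 up, since the region was then not in all lists), and leaving out 1 library gave 0 to 1 up. With the replicate block 1 member was up (adjusted p = 0.00270 by limma), by ranks of −log10 p 1 was up (0.0408), and with the crossed pairing, chosen after seeing the data, 1 was up (0.000147). Over all shared regions ranks by −log10 p gave 8 up and 27 down, centred pileup 184 and 1225, against 875 and 503. No setting gave a member down.

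The mean locus score difference of 17.2 was 24.0 at a −log10 p of at least 10 and 7.93 with equal list length, in both of which FLT3 had no region, and 12.3 to 22.01 when 1 library was left out. That of PDX1 was 8.80 and 2.61 under the same 2 settings, 32.1 with percentiles by −log10 p, and 13.4 to 25.6 when 1 library was left out. With the replicate block both kept their values of 17.2 and 19.5. The CDX2 difference of 1.71 turned to −18.3 with equal list length, to −1.71 without DMSO replicate 2 and to −0.674 without I-BET151 replicate 2, in a range of −1.71 to 5.12 over the 4 libraries left out. The causes were not tested.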
